A study of Oryzias latipes with 10 samples.

Results

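The liver RNA of 4 genes from the egg protein branch of estrogen action was described in medaka (Oryzias latipes), a small freshwater fish. The genes were vit-6 and ol-vit1, which carry the symbols of vitellogenins, 1-sf (synonym l-sf), a choriogenin gene, and esr1, an estrogen receptor gene. They were taken by gene ID and are 4 of 25795 genes in the deposited table. They had been selected on their lower RPM in the knockout libraries of this table, so that difference is given as a description without a test.

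The study compared wild-type medaka (WT) with medaka in which phod1, written pd1 in part of the labels, was knocked out (KO). All fish of both groups were held under long days, and livers were collected at noon. Each group had 5 libraries, numbered in the labels and prepared with the Lasy-Seq v1.1 protocol, which sequences the 3' end of transcripts. The labels give no sex, age, strain, batch, knockout allele or number of founder lines, nor whether each library came from a separate fish, so p-values reflect the spread among these libraries alone, which may be technical. No gene in the name table is called phod1 or pd1, so the knockout was not checked at its own transcript.

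Vitellogenins are large lipoproteins that the liver of egg-laying vertebrates secretes into the blood and that growing oocytes take up and cleave into yolk. Choriogenins are precursors of the egg envelope, and in medaka they too are made in the liver and carried to the ovary. Estradiol from the ovary acts on hepatocytes through nuclear estrogen receptors, of which the esr1 product is one, to switch on both kinds of genes, and in many fish it raises esr1 RNA as well. These transcripts are therefore known as markers of estrogen exposure of the liver, and they are low in males and in immature fish.

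Levels are in reads per 1000000 reads (RPM), which are not divided by gene length; since each transcript is read at its 3' end, levels of different genes were compared on that scale and not per length. Depth was 5422342 to 9803543 reads per WT library and 4542721 to 10112313 per KO library, so that each read counted for 0.0989 to 0.220 RPM. In the whole table, 1.17% of 14984 tested genes were higher and 1.68% lower in KO (limma, a linear model of log2 values fitted over all genes, adjusted p under 0.05). The median log2 fold change of all tested genes was -0.19, and -0.01 after TMM scaling, which equalises libraries on the bulk of their genes. In bulk liver RNA, fewer cells of a type and less RNA per cell cannot be told apart.

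A single library in each group stood apart in the genes described here. WT3 had the lowest WT value of all 4 genes and KO2 the highest KO value of all 4, and KO2 lay above WT3 in each. Results are therefore given with and without these libraries, a choice made after the data were seen.

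The vitellogenin gene ol-vit1 was among the most abundant transcripts of WT liver. Its level was 45018, 53866, 12020, 50838 and 45474 RPM in WT1 to WT5. In KO1 to KO5 it was 3690, 34684, 2646, 2086 and 1914 RPM. In 4 of 5 KO libraries ol-vit1 was thus below every WT library, whereas KO2 lay between WT3 and the remaining WT libraries. Ranked by level within a library, ol-vit1 stood at place 2 to 11 in WT and 5 to 62 in KO. The means were 41443 ± 16862 RPM in WT and 9004 ± 14372 RPM in KO (SD, n = 5 each), which is -3.12 ± 0.60 (SE) as a log2 fold change. Without WT3 and KO2 the means of ol-vit1 were 48799 ± 4289 and 2584 ± 801 RPM (SD, n = 4 per group).

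The other vitellogenin gene, vit-6, showed the widest separation of the 4 on the log2 scale. Its RPM were 18817, 19873, 3643, 22785 and 21572 in WT1 to WT5. In KO1 to KO5 they were 406, 8323, 490.1, 384 and 397. The KO libraries other than KO2 lay within a narrow band, with a coefficient of variation of 11.4%, and KO2 was 16.98 times the next highest of them. WT3 was the only WT library below KO2. Mean vit-6 levels were 17338 ± 7807 RPM in WT and 2000.1 ± 3535 RPM in KO (SD, n = 5 per group; log2 fold change -4.26 ± 0.67). They were 20762 ± 1763 and 419 ± 48.0 RPM without WT3 and KO2 (n = 4 per group). Vitellogenins form a family with similar copies, and how reads shared by copies were assigned is not given in the sources used here, so the split of reads between vit-6, ol-vit1 and related loci is uncertain.

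The choriogenin gene 1-sf reached the level of ol-vit1 in WT liver. It measured 40569.9, 59497, 12037, 50329.8 and 72738 RPM in WT1 to WT5. In KO1 to KO5 it measured 1834, 26471, 2571, 1814 and 2483 RPM. The same libraries stood apart: WT3 was the lowest WT library, at less than the KO2 value, and the remaining KO libraries were all lower than WT3. Mean 1-sf levels were 47034 ± 22877 RPM in WT and 7035 ± 10871 RPM in KO (SD, n = 5 per group; log2 fold change -3.51 ± 0.59). Among the WT libraries other than WT3, 1-sf varied more than the vitellogenins, with a coefficient of variation of 24.5% against 8.79% for ol-vit1 and 8.49% for vit-6. Its means without WT3 and KO2 were 55784 ± 13692 and 2176 ± 407 RPM (n = 4 per group).

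The receptor gene esr1 was far less abundant and separated the groups by less. It stood at 105, 124, 69.2, 97.9 and 113 RPM in WT1 to WT5, and at 14.5, 94.2, 19.2, 21.7 and 22.1 RPM in KO1 to KO5. KO2 was close to WT4 in esr1, and the other KO libraries lay below all WT libraries. The mean was 102 ± 20.8 RPM in WT and 34.3 ± 33.6 RPM in KO (SD, n = 5 each), which is -1.88 ± 0.36 as a log2 fold change. The lowest library, KO1, rested on 87 reads, with a 95% Poisson interval of 11.6 to 17.9 RPM that covers counting error only. WT3 had 375 esr1 reads (interval 62.3 to 76.5 RPM) and KO2 had 428 (85.5 to 104 RPM), so these libraries differed by more than counting error, in the direction opposite to their groups. Without WT3 and KO2 the esr1 means were 110 ± 11.4 and 19.4 ± 3.50 RPM (n = 4 per group).

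Of the 4 genes, 0 had every KO library below every WT library and 0 had every KO library above, separations seen in 2.60% and 1.03% of the tested genes. By mean level the order was 1-sf, ol-vit1, vit-6 and esr1 in WT, and ol-vit1, 1-sf, vit-6 and esr1 in KO, on the RPM scale. The top genes in this order of level, 1-sf and ol-vit1, were not apart beyond their spread in either group. Within each library, vit-6 was below both of them and esr1 was below all.

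**Figure D1:**
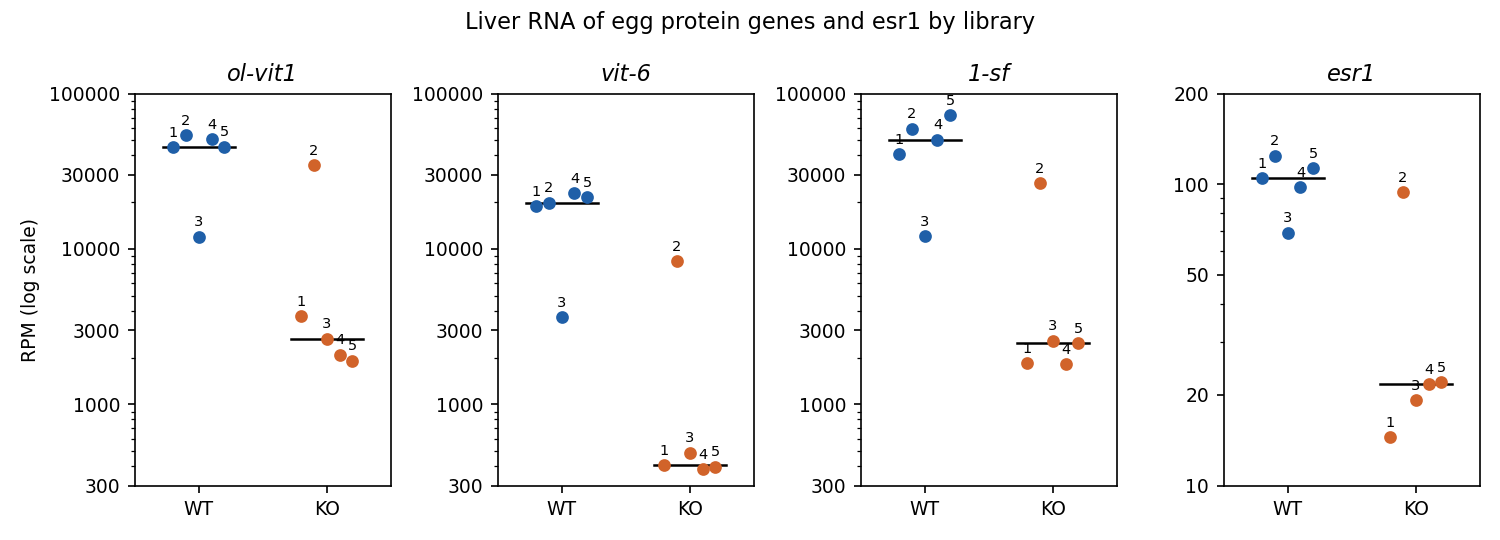
RPM on a log scale of ol-vit1, vit-6, 1-sf and esr1 in each library, numbered 1 to 5 within WT (blue) and KO (orange), with a line at the median of each group. WT3 is the lowest WT point and KO2 the highest KO point in every panel, and KO2 lies above WT3 in each.

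WT3 and KO2 were not displaced equally in the 4 genes. The next lowest WT library exceeded WT3 by 5.17 times in vit-6, 3.75 times in ol-vit1, 3.37 times in 1-sf and 1.42 times in esr1. KO2 exceeded the next highest KO library by 16.98 times in vit-6, 10.3 times in 1-sf, 9.40 times in ol-vit1 and 4.27 times in esr1. The gaps were thus widest in vit-6 and narrowest in esr1 for both libraries. Measured against WT4, KO2 held 96.2% of the esr1 level, 68.2% of the ol-vit1 level, 52.6% of the 1-sf level and 36.5% of the vit-6 level.

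Ratios between genes within a library do not depend on how libraries are scaled, and they too are given without a test. The ratio of vit-6 to ol-vit1 was 0.418, 0.369, 0.303, 0.448 and 0.474 in WT1 to WT5. It was 0.110, 0.240, 0.185, 0.184 and 0.208 in KO1 to KO5. Here the groups did not overlap: WT3 was still the lowest WT library and KO2 the highest KO library, but KO2 stayed below WT3, although it exceeded WT3 in both RNAs taken singly. The mean ratio was 0.402 ± 0.068 in WT and 0.185 ± 0.048 in KO (SD, n = 5 per group). Of the reads assigned to vit-6 and ol-vit1, vit-6 thus held a smaller part in all 5 KO libraries than in any WT library. The split of reads between these loci is uncertain, and both genes were selected as lower in KO. How many other gene pairs separate the groups in this way was not counted, here or for the ratios below.

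The choriogenin kept closer pace with ol-vit1. The ratio of 1-sf to ol-vit1 was 0.901, 1.105, 1.00, 0.990 and 1.60 in WT and 0.497, 0.763, 0.972, 0.870 and 1.30 in KO, in library order. The groups overlapped widely. The highest value of each group came from the library numbered 5, and the lowest values were those of WT1 and KO1. The ratio of vit-6 to 1-sf was 0.464, 0.334, 0.303, 0.453 and 0.297 in WT and 0.221, 0.314, 0.191, 0.212 and 0.160 in KO. KO2 was the only KO library that reached the WT range of this ratio.

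Egg protein RNA per unit of esr1 RNA was also lower in most KO libraries. The summed RPM of vit-6, ol-vit1 and 1-sf was 995, 1071, 401, 1266 and 1237 times that of esr1 in WT1 to WT5. In KO1 to KO5 it was 409, 737, 298, 197 and 217 times. WT3 lay among the KO libraries in this ratio and KO2 lay between WT3 and the rest of WT; the means were 994 ± 350 and 372 ± 221 (SD, n = 5 per group). For vit-6 alone the ratio to esr1 was 52.7 to 233 in WT and 17.7 to 88.3 in KO, for ol-vit1 174 to 519 and 86.8 to 368, and for 1-sf 174 to 644 and 83.5 to 281. In these 3 ratios the lowest WT value was that of WT3 and the highest KO value that of KO2.

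**Figure D2:**
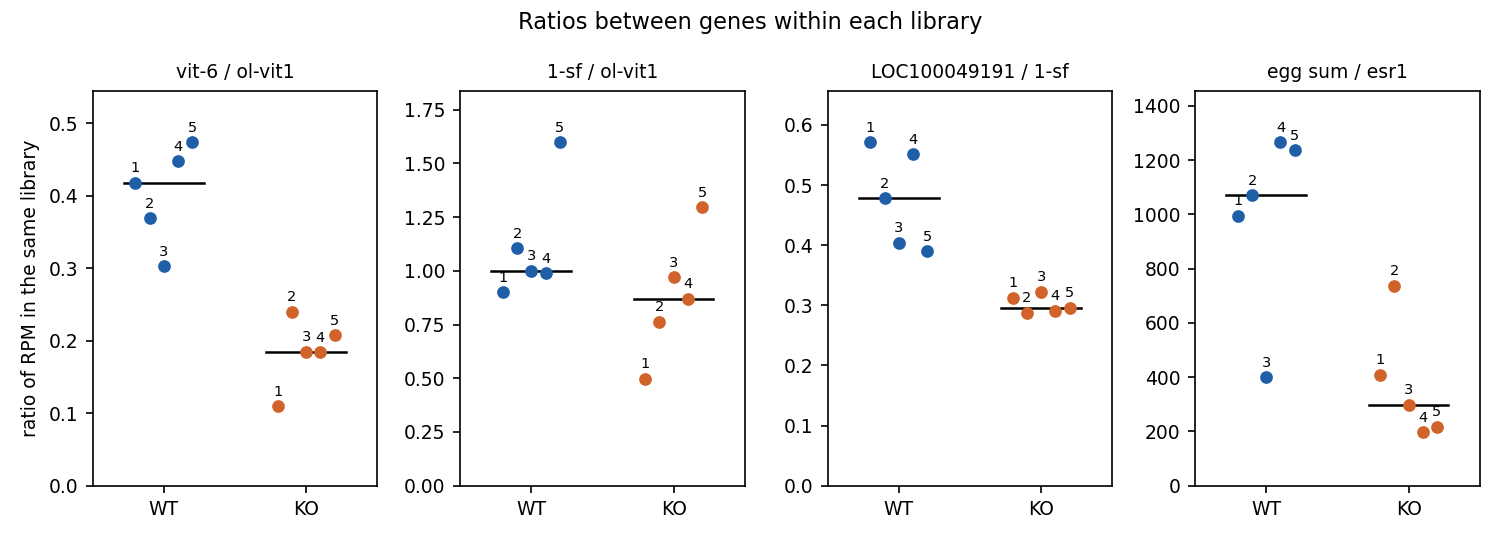
Ratios of RPM within each library, numbered 1 to 5 in WT (blue) and KO (orange), with a line at the group median; the egg sum is vit-6, ol-vit1 and 1-sf together. The ratios of vit-6 to ol-vit1 and of LOC100049191 to 1-sf do not overlap between the groups, whereas those of 1-sf to ol-vit1 and of the egg sum to esr1 do.

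Between the groups, each log2 unit of esr1 went with more than a log2 unit of each egg protein gene. The difference between group means, divided by that of esr1, was 2.27 for vit-6, 1.87 for 1-sf and 1.66 for ol-vit1. These quotients were 2.29, 1.90 and 1.74 when WT3 and KO2 were left out.

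Within the groups, the question is whether libraries with more esr1 than their group's mean also held more egg protein RNA. Log2 values were centred on the group mean, and all pairings within each group were permuted. Over the 10 libraries, esr1 correlated with 1-sf (Pearson r = 0.94, exact permutation p = 0.0062, adjusted over the 3 genes 0.0188). For vit-6 r was 0.93 (exact permutation p = 0.0285, adjusted 0.0373) and for ol-vit1 0.89 (exact permutation p = 0.0373, adjusted 0.0373). Spearman's rho was 0.89 for 1-sf, 0.78 for vit-6 and 0.79 for ol-vit1 (exact permutation p = 0.0112, 0.0353 and 0.0334, adjusted 0.0338, 0.0353 and 0.0353).

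These relations rested on WT3 and KO2. Leaving out KO2 and KO1, the libraries farthest from the median in esr1, gave r = 0.88 for 1-sf, 0.84 for vit-6 and 0.85 for ol-vit1, with exact permutation p of 0.0597, 0.181 and 0.146. Without WT3 and KO2, r was 0.42 for 1-sf, -0.22 for vit-6 and -0.78 for ol-vit1, with exact permutation p of 0.314, 0.653 and 0.0729. Among the remaining libraries a relation of egg protein RNA with esr1 within groups was therefore not detected. KO1, for example, had the lowest esr1 of all libraries and, KO2 aside, the highest ol-vit1 of the KO group. Groups of 5 are too small for a correlation of their own, and none was computed over the pooled groups, since WT and KO form separate clusters.

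**Figure D3:**
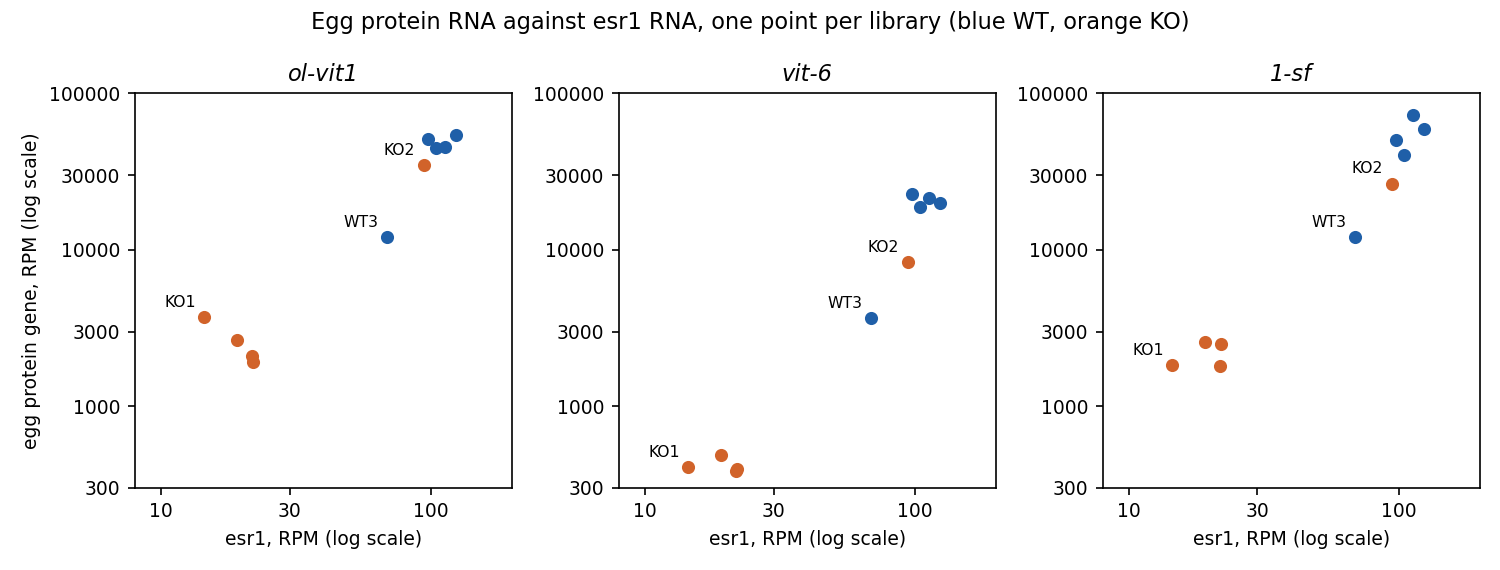
RPM of ol-vit1, vit-6 and 1-sf against RPM of esr1 on log axes, a point per library, WT in blue and KO in orange, with WT3, KO1 and KO2 named. WT3 and KO2 lie between the cluster of 4 WT libraries at 97.9 to 124 RPM of esr1 and the cluster of 4 KO libraries at 14.5 to 22.1 RPM, within which egg protein RNA shows no common trend with esr1.

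The genes next to the 4 loci were examined after the first values had been seen, using the gene order of RefSeq assembly ASM223467v1; the build used by the authors is not given in the sources used here, so no coordinates are printed. In that order ol-vit1 and vit-6 lie on the same chromosome with 3 genes between them, LOC110014930, LOC101173135 and LOC101159180. Taking 2 genes on each side of each locus gave 15 genes, of which 14 were tested. In limma 5 of these fell in KO and 0 rose at an adjusted p under 0.05, or 35.7% against 2.85% of all tested genes, and their median log2 fold change was -0.58. The 5 were the 3 genes between the vitellogenins and the 2 genes that follow 1-sf. Since they adjoin genes selected as lower in KO, their calls are not independent of those genes, and the share is a description. LOC110014930 passed the filter mainly through WT: it reached 1 RPM in every WT library but in KO only in KO2.

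LOC101159180, adjacent to vit-6, showed the widest range. It measured 5289, 6155, 203, 7091 and 7158 RPM in WT1 to WT5 and 33.3, 1811, 46.6, 34.5 and 35.2 RPM in KO1 to KO5. WT3 and KO2 again stood apart, and KO2 exceeded WT3 by a wide margin. Its log2 fold change was -5.28 ± 0.99 (limma adjusted p = 0.00574), a call lost with edgeR (adjusted p = 0.198), DESeq2 (0.0900), robust variances in limma (0.120) and no filter on low values (0.0635). Per unit of vit-6 RNA it amounted to 0.281, 0.310, 0.0558, 0.311 and 0.332 in WT and 0.0820, 0.218, 0.0951, 0.0899 and 0.0886 in KO. In this ratio WT3 was below all KO libraries.

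LOC100049191, adjacent to 1-sf, had a WT mean above that of vit-6 on the RPM scale, at 22526 ± 10112 RPM (SD, n = 5). It measured 23189, 28473, 4864, 27737 and 28367 RPM in WT1 to WT5 and 573, 7623, 830.1, 528 and 734 RPM in KO1 to KO5. Its log2 fold change was -4.15 ± 0.59 (limma adjusted p = 0.00111), and this call was kept in all 21 alternatives that were run. Its ratio to 1-sf was 0.390 to 0.572 in WT and 0.288 to 0.323 in KO, with no overlap. KO2 had the lowest value of this ratio in KO, so the library that stood apart in the levels did not do so here.

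The other 3 genes that fell were expressed at a low level. LOC101159912, after LOC100049191, was at 16.2 to 36.4 RPM in WT and 3.16 to 15.6 RPM in KO, with no overlap, and fell by 1.78 ± 0.35 on the log2 scale (limma adjusted p = 0.00795; 0.0636 with edgeR). LOC101173135 (-2.06 ± 0.46, limma adjusted p = 0.0183) and LOC110014930 (-2.36 ± 0.55, limma adjusted p = 0.0238) lost their calls in 7 and 10 of 21 alternatives. Whether reads of an abundant gene ran into its low neighbours was not tested, and the labels do not say how strand was used in counting. On the outer side of vit-6, ctbs, a gene of glycoprotein breakdown, was at 8.67 to 39.0 RPM in WT and 2.17 to 25.1 RPM in KO and did not pass (-1.63 ± 0.51, limma adjusted p = 0.101). Its fall was stronger in 3 of 21 alternatives, and its log2 fold change ranged from -2.40 to -1.04 over all of them. The 4 genes around esr1 did not pass either; the largest difference among them was that of LOC101167089 (-0.65 ± 0.26, limma adjusted p = 0.224).

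**Figure D4:**
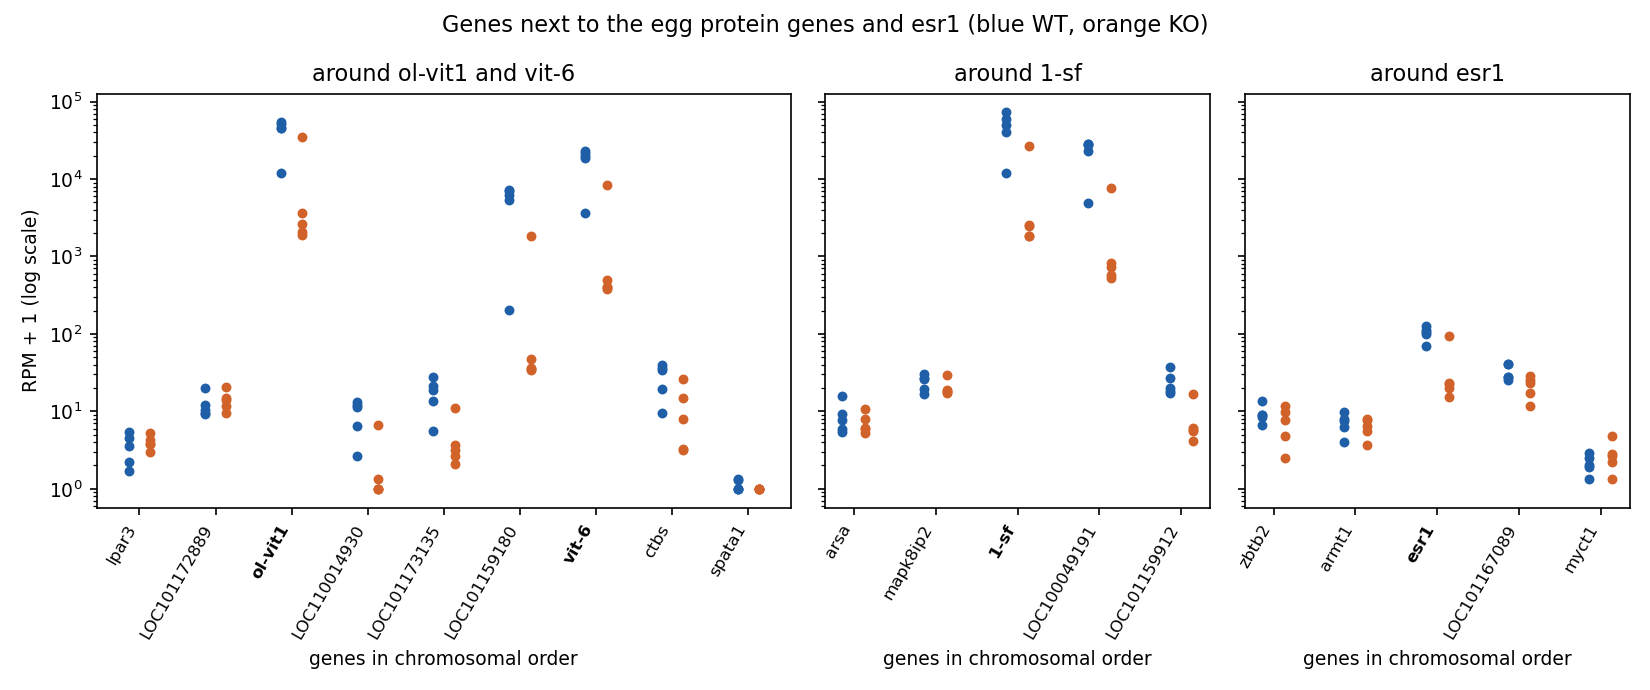
RPM + 1 on a log scale, a point per library (WT blue, KO orange), for the 4 genes described here (bold) and the genes next to them in chromosomal order. LOC101159180 beside vit-6 and LOC100049191 beside 1-sf reach up to 7158 and 28473 RPM in WT and up to 1811 and 7623 RPM in KO, whereas the genes beside esr1 reach at most 40.3 RPM.

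Genes whose levels followed the egg protein genes were ranked by the Pearson r of group-centred log2 values with the mean of vit-6, ol-vit1 and 1-sf, over 10 libraries and 6230 genes with a mean of at least 10 RPM. This is a description, and the libraries share depth and tissue composition. Since RPM have a fixed total, abundant egg protein RNA also lowers the RPM of other genes, which favours negative r. Among genes with a symbol, after the egg protein genes themselves, the highest were rtn1 (r = 0.97), a reticulon of the endoplasmic reticulum, prrg4 (0.96), tmem9 (0.95), lpgat1 (0.94), an acyltransferase of phospholipid synthesis, drg2 (0.90) and slitrk1 (0.89). The receptor gene esr1 (0.93) ranked 15, and the adjacent genes LOC100049191 (0.99) and LOC101159180 (0.98) ranked 2 and 6. The lowest were zc3h3 (-0.94), syf2 (-0.93), pck2 (-0.93), the mitochondrial enzyme that makes phosphoenolpyruvate, and wap65-like (-0.92).

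Of the 10 genes closest in r outside the 4 described here, 7 fell in KO, against 1.68% of all tested genes (limma adjusted p = 0.00111 to 0.0193). These 10 were taken with or without a symbol, and the share called among all ranked genes was not counted. They were picked for likeness to genes selected as lower in KO, and LOC100049191 and LOC101159180 were already counted among the adjacent genes. The share is therefore a description and not separate support. Of the 7 that fell, 6 carry only a LOC number, and rtn1 was the only one with a symbol. Among the 6 highest and 4 lowest genes with a symbol, rtn1 alone passed, falling from 429 ± 163 to 147 ± 120 RPM (SD, n = 5 per group; log2 fold change -1.67 ± 0.37, limma adjusted p = 0.0193). Of all tested genes, 2.85% passed in either direction. Levels of tmem9 were 30.1 ± 7.53 RPM in WT and 30.3 ± 11.5 RPM in KO, and those of drg2 19.8 ± 6.40 and 20.1 ± 7.47 RPM. Without WT3 and KO2 the r of rtn1 was 0.29, of prrg4 -0.17, of tmem9 0.66 and of esr1 -0.28. For lpgat1, drg2 and slitrk1 it was 0.04, 0.20 and 0.10, and for LOC100049191 and LOC101159180 0.68 and 0.73. Among the lowest genes it was -0.63 for zc3h3, -0.57 for pck2, -0.52 for wap65-like and 0.09 for syf2. The order thus rested largely on WT3 and KO2.

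Other genes of estrogen action, sex steroids, hormone reception and lipoprotein export were counted from lists chosen with earlier results of these data known. The lists held 82 genes of the table, of which 61 were tested; 2 rose, 2 fell and 57 did not pass in limma, 6.56% against 2.85% of all tested genes. A list of other egg protein names (further vitellogenins, choriogenins and zona pellucida proteins) matched 0 genes by symbol or synonym. Such genes would be missed if they carry only a LOC number without a listed synonym, which was not checked.

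Of 24 tested estrogen receptors and cofactors, 0 passed, where 2.85% of all tested genes passed. At that share, lists as short as these can hold 0 calls without differing from other genes. The median log2 fold change of this list was -0.18 against -0.19 for all tested genes. A second estrogen receptor gene, esr2 with the synonym ESR2b (gene ID 100169840), was at 19.2 to 42.0 RPM in WT and 22.5 to 36.3 RPM in KO (0.15 ± 0.24, limma adjusted p = 0.802). Its highest WT library was WT3 and its highest KO library KO2. The other esr2 gene (ID 100049269) and the membrane estrogen receptor gene gper1 had 0 reads in every library, which allows up to 0.297 to 0.660 RPM (3 reads). The pioneer factor gene foxa3 was at 2737 ± 141 RPM in WT and 2623 ± 127 RPM in KO (limma adjusted p = 0.884), and the chaperone gene hsp90ab1, whose product holds steroid receptors ready for hormone, at 1565 ± 331 and 1957 ± 443 RPM (limma adjusted p = 0.443). The corepressor gene nr0b2 ranged from 30.8 to 252 RPM in WT, with WT3 highest, and from 91.0 to 191 RPM in KO (limma adjusted p = 0.259).

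Of 9 other tested genes known to respond to estrogen in mammals, 0 passed, against 2.85% of all tested genes, with a median of -0.09. The transcription factor gene xbp1 was at 289 ± 108 RPM in WT and 171 ± 80.2 RPM in KO (-0.76 ± 0.30, limma adjusted p = 0.208). As in the egg protein genes, WT3 was its lowest WT library (132 RPM) and KO2 its highest KO library (303 RPM). In myb, by contrast, WT3 was the highest WT library (38.5 RPM), with KO2 again the highest KO library (41.4 RPM). How many of all tested genes have WT3 and KO2 at such places was not counted, so those of xbp1, myb and esr2 are not read as particular to them. The genes myb (-0.16) and igfbp4 (-0.09), the latter of a binding protein for insulin-like growth factors, lay near the median of all genes. The genes greb1 and pgr, classical estrogen targets, were below 1 RPM on average in both groups and were not tested.

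In sex steroid synthesis and clearance, 2 of 14 tested genes rose and 0 fell, with a median of 0.10. Of all tested genes, 1.17% rose and 1.68% fell, and the list was chosen with earlier results known. hsd17b14, a hydroxysteroid dehydrogenase, measured 76.6, 97.1, 21.9, 9.22 and 38.8 RPM in WT1 to WT5 and 173, 177, 165, 191 and 175 RPM in KO1 to KO5. All KO libraries were above all WT libraries, and KO2 did not stand apart. It rose by 2.25 ± 0.42 on the log2 scale (limma adjusted p = 0.00562; 0.0950 with robust variances and 0.0506 with edgeR). comt, whose enzyme methylates catechol estrogens and catecholamines, rose from 67.1 ± 19.3 to 135 ± 36.4 RPM (1.00 ± 0.23, limma adjusted p = 0.0211). The groups overlapped in comt, since WT3 (94.2 RPM) lay above KO2 (88.1 RPM), and the call was lost in 6 of 21 alternatives. The gene of sex hormone-binding globulin, shbg, was at 304 ± 110 and 410 ± 41.9 RPM and did not pass (limma adjusted p = 0.232). The aromatase gene cyp19b was at 41.4 ± 7.52 and 33.7 ± 9.92 RPM (limma adjusted p = 0.519).

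Lipoprotein assembly and receptors held 10 tested genes, of which 2 fell and 0 rose, with a median of -0.50. Of all tested genes, 1.68% fell and 1.17% rose. This list too was chosen with earlier results known, so its count is not a result about the list. p4hb, a protein disulfide isomerase that is also the partner of the mttp product, measured 855, 741, 537, 908 and 746 RPM in WT1 to WT5 and 368, 232, 341, 313 and 433 RPM in KO1 to KO5, with no overlap. WT3 was the lowest WT library, but KO2 was the lowest and not the highest KO library. It fell by 1.17 ± 0.19 on the log2 scale (limma adjusted p = 0.00248; 0.0774 with edgeR). mttp, which loads lipid onto apolipoproteins, fell from 152 ± 30.5 to 88.2 ± 14.2 RPM (-0.77 ± 0.19, limma adjusted p = 0.0295), again with no overlap, and the call was lost in 12 of 21 alternatives, among them TMM scaling (adjusted p = 0.157). Of the 4 tested receptors for growth and thyroid hormones, 0 passed, against 2.85% of all tested genes. Among them, ghr (gene ID 100144349) was at 499.9 ± 48.8 RPM in WT and 465 ± 49.2 RPM in KO.

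**Figure D5:**
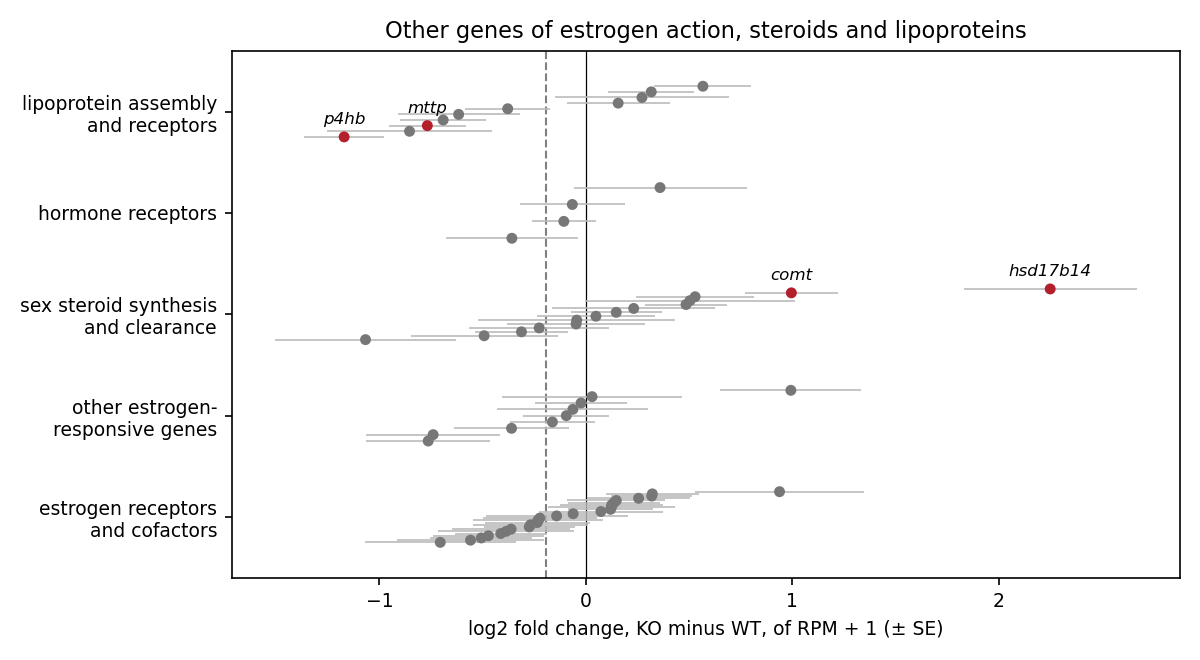
Log2 fold change of RPM + 1, KO minus WT, with its SE, for the tested genes of 5 lists, those with a limma adjusted p under 0.05 in red and named. The dashed line marks the median of all tested genes at -0.19; most points of the receptor, cofactor and estrogen-responsive lists lie within a log2 unit of it.

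Markers of the cells a liver sample could hold were read as summed RPM. The 7 matched hepatocyte markers summed to 20174 to 63990.1 RPM in WT and 63857 to 92078 RPM in KO. LOC100144362 (synonym tf, transferrin) made up most of these sums. Of the 7, hpx and LOC100144362 rose (limma adjusted p = 0.00454 and 0.00884), where 1.17% of all tested genes rose. The others did not pass: fgb, fgg, fga, wap65-like and rbp4 (limma adjusted p = 0.0579, 0.0664, 0.0963, 0.110 and 0.964). WT3 had the highest WT sum and KO2 the lowest KO sum, opposite to their places in the egg protein genes. RPM have a fixed total, so a library with more egg protein RNA has less RPM left for all other genes. How much of these opposite places, and of the higher sums in KO, came from that was not tested. Taken singly, 6 of the 7 markers were highest in WT3 among WT libraries and 6 of 7 lowest in KO2 among KO libraries. How many of all tested genes took these places was not counted, so the counts are not read as particular to hepatocyte markers. The exception was rbp4, the retinol carrier gene, at 2940.2 RPM in WT3, within the WT range of 2030.0 to 3468 RPM, and at 3489.8 RPM in KO2, the highest of the KO libraries. The 7 matched oocyte markers summed to 2.58 to 50.1 RPM in WT and 0.956 to 7.92 RPM in KO. The germ cell gene dazl, which gave most of the sum in WT1, WT2 and WT4, was at 32.0, 47.4, 1.29, 29.5 and 0.816 RPM in WT1 to WT5 against 0.333 to 6.82 RPM in KO (limma adjusted p = 0.146). WT5, with high egg protein RNA, was low in dazl. The other oocyte markers reached at most 2.66 RPM (mos in KO1). Their means were higher in KO than in WT for bmp15, figla, mos and zar1, and lower for ddx4 and nobox. Ovary somatic markers summed to 20.4 to 43.5 RPM in WT and 12.9 to 30.4 RPM in KO, mostly from amh (19.9 to 40.8 and 11.3 to 30.4 RPM). In that list, foxl2 and LOC101174651 (synonym cyp19a1) had 0 reads in every library. Testis markers summed to 2.80 to 7.38 and 2.09 to 7.70 RPM, leukocyte markers to 60.5 to 210 and 62.7 to 77.9 RPM, endothelial and stellate markers to 42.2 to 66.8 and 52.1 to 74.1 RPM, and cholangiocyte markers to 84.7 to 116 and 102 to 166 RPM. Pancreas and erythrocyte markers were represented by cpb1 (3.52 to 208 RPM) and gata-1 (10.99 to 25.4 RPM). The part of tissue composition and of the sex or reproductive state of the fish in the values above was not tested.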

How the data were processed

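A single table holds the RPM of all libraries (reads per 1000000 reads), as the authors deposited it, from 3' RNA-seq per the labels' protocols. Salmon 1.4.0 and BWA 0.7.17-r1188 appear in the submitters' processing notes, with their use not described; build, annotation and treatment of shared reads are not given in the sources used here. All 25795 IDs matched a RefSeq gene table.

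The 14984 genes that reached 1 RPM in 5 or more of the 10 libraries were fitted as log2(RPM + 1), which understates changes of low genes, with limma 3.58.1 in R 4.3.3 (variance trend, no covariate, two-sided, Benjamini-Hochberg, threshold 0.05). Ratios, exact permutation tests and plots were made in Python 3.11.15 (scipy 1.17.1, numpy 2.4.6, pandas 2.3.3, matplotlib 3.10.9). Correlations were two-sided and adjusted over 3 genes. The limma and permutation steps were tested on simulated data, with outcomes not given here. The data simulated for limma drew each gene on its own, without libraries that stand apart in many genes as WT3 and KO2 do.

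The 4 genes and all lists were chosen with earlier results of these data known. Named genes were the 4, every list gene past the threshold (otherwise up to 3 of the highest mean), and the 6 highest and 4 lowest in likeness; adjacent genes, esr2, gper1, greb1, pgr, dazl and any other gene named were chosen after their values were seen.

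Of all values, 100.0% were whole reads within 1e-06; KO5, whose step is near 0.1 RPM, was left out of count tests. On 9 libraries edgeR 4.0.16 called 131 higher and 47 lower, and DESeq2 1.42.0 310 and 179. Other alternatives were pseudocounts of 0.5 and 5, filters, TMM, rescaling without the egg protein genes vit-6, ol-vit1 and 1-sf, robust variances, a replicate block and leaving out libraries. Pairs of libraries within a group, KO5 not included, differed by a chi-square of 14.6 to 140.1 per degree of freedom, so none of these 9 libraries was counted as a duplicate.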

Additional observations from a re-analysis of the deposited data

Results flagged for a closer look

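Of 108 sets of 5 library values checked (45 named genes and 9 ratios, in each group), 37 had a highest or lowest library far from the others, where chance gives about 1 in 20. The sets are not independent, since they share libraries and some genes were picked for following the egg protein genes. All but 1 concerned WT3 or KO2; the exception was WT1 in igfbp4 (38.0 against 26.6 to 29.3 RPM).

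WT3 was far below the other WT libraries in vit-6 (3643 against 18817 to 22785 RPM) and ol-vit1 (12020 against 45018 to 53866 RPM). The same held for LOC101159180 (203 against 5289 to 7158 RPM) and LOC100049191 (4864 against 23189 to 28473 RPM), and for the ratio of LOC101159180 to vit-6 (0.0558 against 0.281 to 0.332).

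KO2 was far above the other KO libraries in vit-6 (8323 RPM), ol-vit1 (34684 RPM), 1-sf (26471 RPM) and esr1 (94.2 against 14.5 to 22.1 RPM). It was likewise high in the adjacent genes LOC101159180 (1811 RPM), LOC100049191 (7623 RPM), LOC101159912 (15.6 RPM), LOC101173135 (9.91 RPM) and LOC110014930 (5.72 RPM). Its ratios of vit-6 to esr1 (88.3), of 1-sf to esr1 (281) and of LOC101159180 to vit-6 (0.218) were also far above those of the other KO libraries.

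Outside these loci, WT3 stood high among WT libraries in several genes of plasma proteins, metabolism and transcription. It had 44301 RPM of LOC100144362 (synonym tf), 1390.4 of wap65-like, 496 of shbg, 337 of pck2 and 252 of nr0b2. In shbg the other WT libraries were at 219 to 284 RPM. WT3 stood low in tmem9 (16.97 RPM) and LOC101161140 (3791 RPM).

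KO2 stood high in dazl (6.82 RPM) and in genes picked for likeness to the egg protein genes, whose choice favours such values. These were rtn1 (362 RPM), lpgat1 (57.9), tmem9 (50.2), drg2 (33.2), slitrk1 (26.6) and prrg4 (22.0), with LOC100049432 (22079), LOC101161140 (4784), LOC101171080 (1957) and LOC101171578 (801.5). In syf2 it stood low (34.3 against 71.7 to 84.3 RPM). No cause was tested.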

How the results depend on the processing

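The log2 fold changes of the 4 genes stayed negative in all 21 alternatives, at -5.63 to -2.84 for vit-6, -4.28 to -1.90 for ol-vit1, -4.67 to -2.51 for 1-sf and -2.46 to -1.36 for esr1. The genes were selected as lower in KO in these same libraries, so the kept sign is no separate support and only the ranges are informative. Counts over all genes (175 higher, 252 lower) moved to 73 and 103 without a filter, 303 and 131 with TMM, 424 and 621 without WT3 and KO2, and 310 higher with DESeq2. Lower genes numbered 427 after rescaling without the egg protein genes and 47 with edgeR. Leaving out each library in turn gave 94 to 365 higher and 104 to 479 lower, the highest without WT3. The 4 list genes past the threshold became 2 without a filter, 8 without WT3 and KO2, 1 with edgeR and 2 to 7 with each library left out. Without WT3 and KO2, r with esr1 was -0.22 (vit-6), -0.78 (ol-vit1) and 0.42 (1-sf); leaving out single libraries gave 0.71 to 0.96, 0.48 to 0.96 and 0.80 to 0.97, with adjusted exact permutation p above 0.05 without WT3 and without KO2. Signs changed for armt1 (0.0215 with TMM, 0.0558 without WT3 and KO2, -0.35 to 0.0210 with each library left out) and mapk8ip2 (0.0101 with edgeR, 0.0036 with DESeq2). The cause of these shifts was not tested beyond the samples and genes each alternative leaves out. With the replicate number as a block, 145 genes were higher and 190 lower. Same-numbered libraries did not deviate together over the tested genes (r = -0.08 to 0.0008), so no pairing by number was detected. Whether they shared handling was not tested. The depth limits LOC110014930, with 0 reads in 3 KO libraries.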

Other observations

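Several of the genes most like the egg protein genes carry only a LOC number and are given as values, chosen after these were seen. They were picked for likeness to genes selected as lower in KO, so their calls are a description and not separate support. Their calls in the alternatives are not given. LOC100049432 was the most abundant transcript of 3 of 5 WT libraries, at 50962, 66478, 18285, 62864 and 88258 RPM in WT1 to WT5 and 2651, 22079, 4698, 3217 and 5427 RPM in KO1 to KO5. Its group-centred r with the mean of the egg protein genes was 0.94 over 10 libraries, and it fell by 3.23 ± 0.47 on the log2 scale (limma adjusted p = 0.0012). LOC101161140 (r = 0.99) fell from 8721 ± 2902 to 1454 ± 1864 RPM, LOC101171080 (0.96) from 4902 ± 3434 to 449.7 ± 843 RPM and LOC101171578 (0.95) from 2561 ± 1298 to 188 ± 343 RPM (SD, n = 5 per group; limma adjusted p = 0.0012, 0.0022 and 0.0014). In all 4 of these genes KO2 was the highest KO library and lay above WT3, the lowest WT library. Without WT3 and KO2 their r was 0.37 for LOC100049432, 0.58 for LOC101161140, 0.50 for LOC101171080 and 0.15 for LOC101171578.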
